A study of Homo sapiens with 8 samples.

Results

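Among the 4 libraries made before and at 24 h of chromium exposure in a human lymphoblastoid cell line, the counts fell into pairs that crossed both the treatment and the replicate number. Pair A holds control replicate 1 and 24 h replicate 2, and pair B holds control replicate 2 and 24 h replicate 1, so that each pair contains 1 control and 1 exposed library. These 4 of the 8 libraries of the study were selected on the likeness of these same gene counts, that is, chosen by the measured values themselves, and what separates the pairs is therefore given as a description, with no test. Lymphoblastoid cells are B cells made to grow without limit by Epstein-Barr virus. All libraries come from 1 such line grown in RPMI medium. The control was taken before exposure, the exposed cells received 5 µM hexavalent chromium for 24 h, and the other 4 libraries were made from exposed cells 3 and 7 days post treatment, with 2 biological replicates in each group. What made the replicates biological (separate cultures, for example) is not given in the sources used here, so the tests measure only the spread between these libraries.

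A lymphoblastoid line resembles an activated B cell. Viral proteins drive NF-kB signalling and proliferation, while the line keeps B cell surface receptors, interferon-responsive genes and part of the transcription programme by which B cells become antibody-secreting plasma cells. Cells of such a line also adjust amino acid, sterol and glycolytic genes to the state of the medium, through factors such as ATF4, the SREBP proteins and hypoxia-inducible factor. CD22, an inhibitory receptor that dampens signalling by the B cell receptor, is the gene by which the pairs are marked here.

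Total gene counts were 10884838 and 10434228 in pair A and 9478459 and 9587004 in pair B. Here and throughout, the values of a pair are given control first and 24 h second. Genes with at least 1 count numbered 15828 and 15618 in pair A, and 15334 and 15396 in pair B. Reads counted under no feature made up 44.4% and 46.4% of the table in pair A against 47.5% and 51.5% in pair B. Reads ambiguous between genes made up 0.763% and 0.749% against 0.656% and 0.608%. Each of these measures thus kept the pairs apart without overlap. The part of read assignment in the gene differences was not tested, and the values at equal depth stand with the counts of genes. B cell genes marked the cells: 28 of 31 members of the B cell surface list reached 10 CPM (gene counts scaled to a common library size with TMM factors, the unit cpm of edgeR) in some library. The T and NK cell list reached it with 1 of 15 genes (LCK), with CD3D, CD3G, CD8A and GZMB at 0 in every library, and its summed level was 60.0 and 63.2 CPM in pair A and 58.2 and 57.1 in pair B. The myeloid list reached it with 1 of 12 genes (ITGAM), with S100A8 and S100A9 at 0, and summed to 10.7 and 12.4 CPM in pair A and 17.0 and 15.7 in pair B. None of 12 stromal or epithelial genes and none of 6 erythroid genes reached 10 CPM. The stromal sums were 14.3 and 10.4 CPM in pair A and 8.69 and 11.2 in pair B, with DCN and LUM at 0, and the haemoglobin genes HBA1, HBA2 and HBB were at 0 in every library. In bulk RNA, fewer cells of a type and less RNA per cell cannot be told apart.

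The likeness of 2 libraries was measured as the chi-square of their counts over genes, divided by its degrees of freedom, which is near 1 where only sampling noise separates them. It was 6.08 within pair A and 6.37 within pair B, so the libraries of a pair differed by more than sampling noise and were kept as separate samples. Libraries that share a treatment were less alike: 23.5 between the controls and 27.0 between the 24 h libraries. Libraries that share a replicate number but not the treatment gave 35.0 for number 1 and 20.4 for number 2. In the late libraries the alike pairs did carry the same number, with 4.42 between 3 and 7 days for number 1 and 5.53 for number 2. The numbers of the control and 24 h libraries thus run against the counts. Whether they were exchanged in the controls, exchanged at 24 h or never marked a shared culture cannot be told apart from these files. Both libraries of pair A were nearer to the late libraries numbered 2 (17.2 to 21.0) than those of pair B were (23.2 to 31.6). Against the late libraries numbered 1 the values were 71.9 to 84.1 for pair A and 105 to 127 for pair B.

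**Figure D1:**
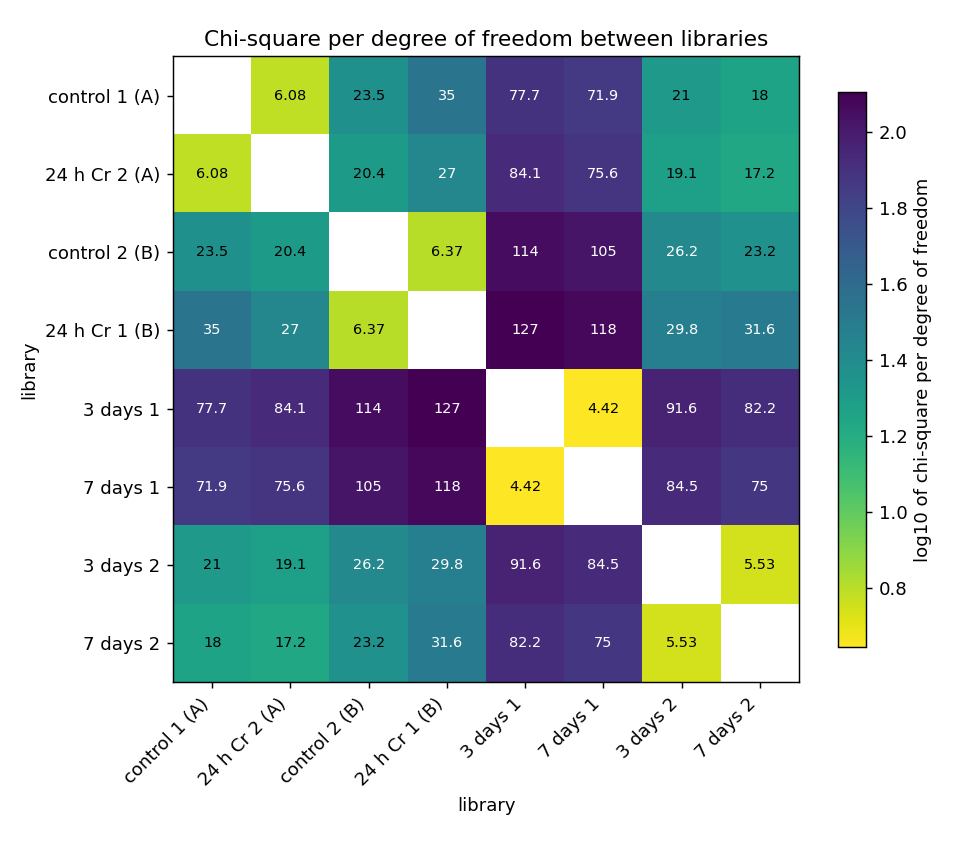
Chi-square per degree of freedom between every 2 of the 8 libraries; both axes list the libraries, the colour is the log10 of the value, and the value is printed in each cell. The 2 early pairs stand out as cells of 6.08 and 6.37 beside values of 20.4 to 35.0 for the other combinations of early libraries.

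Of 12536 genes that passed the filter on low counts, 3873 (30.9%) had both libraries of pair A above both of pair B and 3709 (29.6%) had the reverse, together 60.5%. For the same libraries regrouped by treatment, 1428 genes (11.4%) had both 24 h libraries above both controls, and 1573 (12.5%) had both below. A gap of at least 1.5-fold between the lowest library of the higher pair and the highest of the lower pair was found for 265 genes higher in pair A (2.11%) and 434 higher in pair B (3.46%), together 5.58%. With every library thinned to the smallest total count, 253 and 436 genes had such a gap. Between treatments it was found for 30 genes higher at 24 h (0.239%) and 28 lower (0.223%). The gap of 1.5-fold is a line drawn through a continuum: LRIG1 (gap 1.5004-fold) and MBNL2 (1.5001-fold) lay just inside it, and LSM11 (1.4998-fold) and CALCRL (1.4993-fold) just outside. The 265 and 434 genes are called pair A genes and pair B genes from here on.

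Across genes, the difference between the controls (replicate 1 minus 2) went with the crossed difference at 24 h (replicate 2 minus 1), with Pearson r 0.60 and Spearman rho 0.62 over 12536 genes, and 74.9% of genes had the same sign. These differences share no library, but the libraries were paired for this likeness, and genes are not independent replicates. The difference between 24 h and control within pair A went less closely with that within pair B (Pearson r 0.14, Spearman rho 0.19). Pair A genes differed between the pairs by a median of 1.02 on the log2 CPM scale, and between 24 h and control by a median size of 0.13 in pair A and 0.21 in pair B. Pair B genes had a median pair difference of -1.01 (A minus B), and a median size of the difference between 24 h and control of 0.18 in pair A and 0.16 in pair B. The gap that defines both sets was taken in these same libraries. It favours large differences between the pairs and small ones within them, so this contrast is fixed in part by the choice of genes. For all genes tested the median size was 0.25 between pairs, each taken as the mean of its 2 libraries. Between treatments it was 0.16 and 0.17 for single libraries within pair A and pair B, and 0.13 for the mean of both pairs. In an edgeR quasi-likelihood test of 24 h against control that left the pairs out of the model, 0 of 12536 genes (0%) passed an adjusted p under 0.05, and 22 had an unadjusted p under 0.05. DESeq2 and limma-voom also called 0. With the early pair as a block, 94 genes passed (35 higher at 24 h, 59 lower), in a fit whose spread is small through the choice of alike libraries, so that this number is a description. Neither count shows that chromium had no effect.

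**Figure D2:**
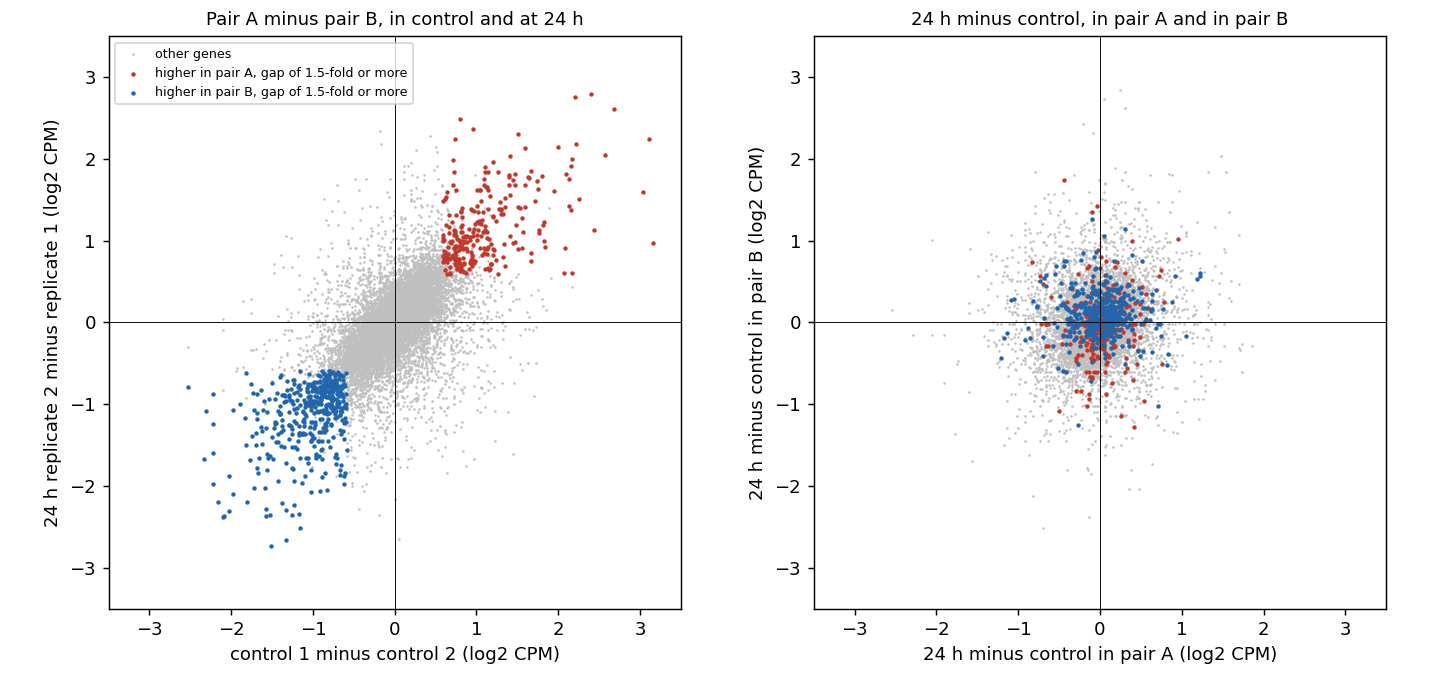
Each point is a gene among the 12536 tested, not all of which need be drawn, on axes of limited range. Left, the log2 CPM difference between controls (replicate 1 minus 2, x axis) against that at 24 h (replicate 2 minus 1, y axis); right, 24 h minus control in pair A (x axis) against pair B (y axis). Red points are from the 265 pair A genes and blue points from the 434 pair B genes. They lie in opposite corners on the left by their definition and around 0 on the right.

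CD22 was at 102 and 94.8 CPM in pair A and at 175 and 179 CPM in pair B. Both libraries of pair B were higher, and the 24 h library stayed within 0.10 log2 of its control in each pair (-0.10 in pair A, 0.03 in pair B). The pair difference was -0.85 on the log2 scale. Other B cell surface genes lay the same way. CD180, a Toll-like receptor homologue of B cells, was at 23.8 and 22.7 CPM in pair A and 41.0 and 46.2 in pair B, and TNFRSF13C, the receptor for the survival factor BAFF, was at 4.66 and 4.37 against 14.0 and 14.2. In each of these genes the pairs did not overlap and the 24 h libraries followed their pair. Of 29 B cell surface genes that passed the filter, 18 were higher in both libraries of pair B and 7 in both of pair A, and the list's median difference was -0.42 (0.01 for all genes). The exceptions with the widest difference were the Fc receptor-like genes FCRL2 (10.9 and 15.9 CPM in pair A, 6.45 and 3.22 in pair B) and FCRL4 (20.3 and 21.6 against 11.4 and 8.04). The components of B cell receptor signalling below the surface had no common direction, with 8 of 30 higher in pair A, 12 higher in pair B and a median of 0.00. The counts of these and later lists are read beside the shares of all genes, 30.9% for pair A and 29.6% for pair B.

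Activation genes were led by EGR3 and CD69 on the side of pair B. EGR3, a zinc finger factor induced by antigen receptor signalling, was at 11.4 and 12.6 CPM in pair A and 47.3 and 62.8 in pair B. CD69, a lectin that appears early on activated lymphocytes, was at 143 and 127 CPM against 322 and 324. Pair B was higher for both genes with no overlap. EGR1 lay the same way (16.8 and 12.9 against 28.1 and 29.2 CPM), while its relative EGR2 was higher in pair A (23.6 and 33.0 against 13.3 and 16.6 CPM), as was FOS (5.80 and 6.14 against 1.84 and 2.41 CPM). The 26 immediate early genes leaned to pair B, with 5 higher in pair A and 13 in pair B. Their median difference was -0.38, with -0.16 between the controls and -0.59 between the 24 h libraries. The median of 24 h minus control was -0.10 in pair A and 0.26 in pair B. Among 45 NF-kB targets, 7 were higher in pair A and 22 in pair B, with a median of -0.16. LTA, the cytokine lymphotoxin alpha, was at 291 and 252 CPM in pair A and 532 and 455 in pair B. The chemokine gene CXCL10, also an NF-kB and interferon target, went against its list with the widest pair A difference of any gene named here, at 12.04 and 16.1 CPM in pair A and 2.46 and 2.21 in pair B.

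Counts under MIR146A, the host locus of a microRNA that represses the adaptors TRAF6 and IRAK1 upstream of NF-kB, were also among the 15 widest gaps on the side of pair B. They were 17.8 and 15.0 CPM in pair A and 52.8 and 52.7 in pair B. Poly-A selected counts reflect the primary transcript and do not measure the mature microRNA, whose sequence is shown with its seed (bases 2 to 8) in capitals (RefSeq, GRCh38.p14, chr5:160485372-160485393, plus strand) to identify the product of the locus.
hsa-miR-146a-5p: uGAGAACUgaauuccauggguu

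Plasma cell regulators were higher in pair A. PRDM1, which encodes the repressor Blimp-1 that drives plasma cell differentiation, was at 198 and 199 CPM in pair A and 115 and 107 in pair B. TNFRSF17, the receptor BCMA, was at 559 and 546 CPM against 311 and 274, and IRF4, a factor required for plasma cells, at 2718 and 2642 against 1865 and 1778. In these genes the libraries of a pair lay close together and the pairs apart. Of 19 genes in the list, 11 were higher in pair A and 3 in pair B, and the median was 0.15. Among 25 B lineage transcription factors and related genes, 8 were higher in pair A and 10 in pair B (30.9% and 29.6% of all genes). IKZF2, an Ikaros family factor, was at 617 and 735 CPM in pair A and 1186 and 1455 in pair B, so that pair B was higher without overlap.

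Interferon-stimulated genes lay with pair B: 34 of 44 were higher in both libraries of pair B and 2 in both of pair A, with median differences of -0.45 between the controls and -0.48 between the 24 h libraries. RSAD2, which encodes the antiviral enzyme viperin, was at 17.3 and 16.6 CPM in pair A and 49.3 and 44.2 in pair B. IFI44L was at 622 and 696 CPM against 1273 and 1338, and PARP12, an ADP-ribosyltransferase with antiviral activity, at 72.7 and 56.9 against 124 and 135. All 3 had every library of pair B above every library of pair A. The interferon-stimulated response element, searched as GAAA, any 2 bases and GAAA on both strands of the 250 bases before the start site, occurred in 21 of 33 members with a promoter in the RefSeq table (63.6%) and in 839 of 27305 promoters in the table (3.07%). Here and for the motifs that follow, a match is a description of the letters and not of binding. The part of these elements in the pair differences was not tested. Stretches of 2 promoters are shown with the match in capitals, as examples of a list whose members lay together (RefSeq, GRCh38.p14; IFI44L chr1:78620234-78620343, plus strand, and PARP12 chr7:140062952-140063011, minus strand, each read in the direction of its gene).
IFI44L: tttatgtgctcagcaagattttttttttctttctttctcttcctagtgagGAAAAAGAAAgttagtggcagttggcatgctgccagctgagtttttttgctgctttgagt
PARP12: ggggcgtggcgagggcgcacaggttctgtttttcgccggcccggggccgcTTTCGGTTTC

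Genes of the ATF4 amino acid response were higher in pair B, 26 of 32 against 1 higher in pair A, with a median of -0.50. SLC7A11, the cystine transporter, was at 32.1 and 41.2 CPM in pair A and 104 and 143 in pair B. ALDH1L2, a mitochondrial enzyme of folate metabolism, was at 4.92 and 3.81 CPM against 13.1 and 18.4, and CHAC1, which degrades glutathione, at 2.28 and 1.58 against 6.04 and 8.54. Pair B was higher in every case. In pair B the 24 h library was above its control for SLC7A11 by 0.46, for CHAC1 by 0.49 and for ASNS, asparagine synthetase, by 0.49, and in pair A these differences were 0.36, -0.48 and 0.19. ASNS was at 75.5 and 86.3 CPM in pair A and 108 and 152 in pair B. An amino acid response element (TGATGNAA, both strands) occurred in 3 of 24 members with a promoter in the table (12.5%) and in 870 of all 27305 (3.19%). The stretches of 2 of the 3 are shown with the match in capitals (GRCh38.p14; CHAC1 chr15:40953221-40953319, plus strand, and ASNS chr7:97872419-97872526, minus strand).
CHAC1: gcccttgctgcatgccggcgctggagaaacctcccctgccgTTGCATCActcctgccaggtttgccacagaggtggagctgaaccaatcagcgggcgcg
ASNS: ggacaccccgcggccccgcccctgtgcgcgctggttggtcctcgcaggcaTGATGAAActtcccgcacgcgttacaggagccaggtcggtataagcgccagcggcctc

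Hypoxia and glycolysis genes lay the same way, 30 of 39 higher in pair B and 1 in pair A, with a median of -0.40. VEGFA, the vascular growth factor, was at 21.6 and 16.4 CPM in pair A and 51.3 and 57.2 in pair B, and PFKFB4, a regulator of glycolysis, at 18.8 and 14.5 against 38.4 and 51.3. The aldolase gene ALDOC was at 197 and 191 CPM against 390.3 and 467. Cholesterol and fatty acid synthesis had 23 of 32 genes higher in pair B and 3 in pair A, with a median of -0.51. SREBF1, which encodes the SREBP-1 factors of lipid synthesis, was at 14.6 and 13.9 CPM in pair A and 30.2 and 28.2 in pair B. SCD, the fatty acid desaturase, was at 362 and 324 CPM against 606 and 670.5, FADS1, another desaturase, at 95.0 and 92.1 against 163 and 185, and ELOVL6, a fatty acid elongase, at 14.9 and 16.7 against 40.4 and 35.7. In these 4 genes each pair B library was at least 1.5-fold above each pair A library. The sterol regulatory element, searched on both strands with the letters in capitals in the stretch that follows, was in 1 of 26 promoters of the list and in 10 of 27305. That promoter belongs to SREBF2, at 212 and 207 CPM in pair A and 248 and 249.6 in pair B, and its stretch is shown as the single match (GRCh38.p14, chr22:41832921-41833030, plus strand).
SREBF2: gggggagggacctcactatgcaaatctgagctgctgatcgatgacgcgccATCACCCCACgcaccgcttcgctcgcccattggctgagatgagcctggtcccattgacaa

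Most lists of proliferation and of protein production leaned to pair A. Cytosolic aminoacyl-tRNA synthetases did not, with 8 of 20 higher in pair A and 7 in pair B (median 0.06). Nor did replication-dependent histones, with 3 of 13 and 2 (median 0.03). DNA replication had 45 of 49 genes higher in both libraries of pair A and 1 in both of pair B, with a median of 0.50. RRM2, a subunit of ribonucleotide reductase, was at 605 and 619.7 CPM in pair A and 302 and 264 in pair B. CDC6, which loads the replicative helicase, was at 71.2 and 67.5 CPM against 37.9 and 30.5, and ORC1, a subunit of the origin recognition complex, at 77.1 and 69.2 against 41.8 and 33.1. Every library of pair A was above every library of pair B in these genes. G2/M and mitosis genes had a smaller median of 0.26, with 23 of 38 higher in pair A and 2 in pair B. E2F sites (TTTCCCGC or TTTGGCGC, both strands) occurred in 14 of 42 promoters of the DNA replication list (33.3%) and in 536 of 27305 (1.96%). Stretches before 2 of these genes are shown with the match in capitals (GRCh38.p14; E2F2 chr1:23531234-23531325, minus strand, and UHRF1 chr19:4909437-4909500, plus strand). E2F2, an activating E2F factor, was at 35.5 and 32.5 CPM in pair A and 20.2 and 12.7 in pair B, and UHRF1, which maintains DNA methylation, at 67.1 and 56.9 against 36.3 and 31.1.
E2F2: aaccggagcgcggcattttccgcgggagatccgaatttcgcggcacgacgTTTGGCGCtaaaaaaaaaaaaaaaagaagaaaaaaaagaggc
UHRF1: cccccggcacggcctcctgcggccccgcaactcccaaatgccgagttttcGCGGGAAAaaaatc

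Ribosome biogenesis had 34 of 37 genes higher in pair A and 0 in pair B, with a median of 0.42, and MRTO4, a ribosome assembly factor, was at 41.0 and 37.4 CPM against 24.5 and 22.6. Smaller medians were found for proteasome subunits (0.30, with 20 of 31 higher in pair A and 0 in pair B), cytosolic ribosomal proteins (0.24, with 47 of 74 and 0) and the nuclear-encoded respiratory chain (0.23, with 42 of 74 and 3). None of these last 3 lists had a gene with a gap of 1.5-fold in either direction. Chaperones lay with pair A too. HSPA5, the main chaperone of the endoplasmic reticulum, was at 1220.2 and 1219 CPM in pair A and 693 and 565 in pair B. The cytosolic chaperone HSPA8 was at 2944 and 3056 CPM against 1684 and 1414, and the calcium-binding chaperone CALR at 586 and 556 against 329 and 295. For these abundant transcripts the pairs were again apart, and 19 of 28 ER chaperone genes and 16 of 23 heat shock chaperone genes were higher in pair A, with 5 and 1 higher in pair B. The integrin ITGAL, which pairs with ITGB2 to form LFA-1, was at 216 and 199 CPM in pair A and 101 and 87.5 in pair B, and the chemokine receptor CXCR4 at 66.2 and 56.2 against 30.0 and 29.6.

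Lists tied to metal, oxidative and DNA damage stress had members on both sides. Of all genes, 30.9% were higher in pair A and 29.6% in pair B. NRF2 antioxidant genes had 10 of 33 members higher in pair A and 5 in pair B (median 0.11). Among p53 targets these were 18 of 43 and 9 (median 0.14). Metallothionein and metal response genes leaned to pair A, with 7 of 12 and 2 and a median of 0.35. With a stricter filter on low counts their median was 0.19 over 10 genes. FTH1, the heavy chain of the iron store ferritin, lay on the other side, at 348 and 335 CPM in pair A and 512 and 462 in pair B. Antigen presentation had no common direction for MHC class II (6 of 18 genes higher in each pair, median 0.06, or -0.03 without control replicate 1), and for MHC class I 4 of 21 were higher in pair A and 11 in pair B (median -0.15).

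**Figure D3:**
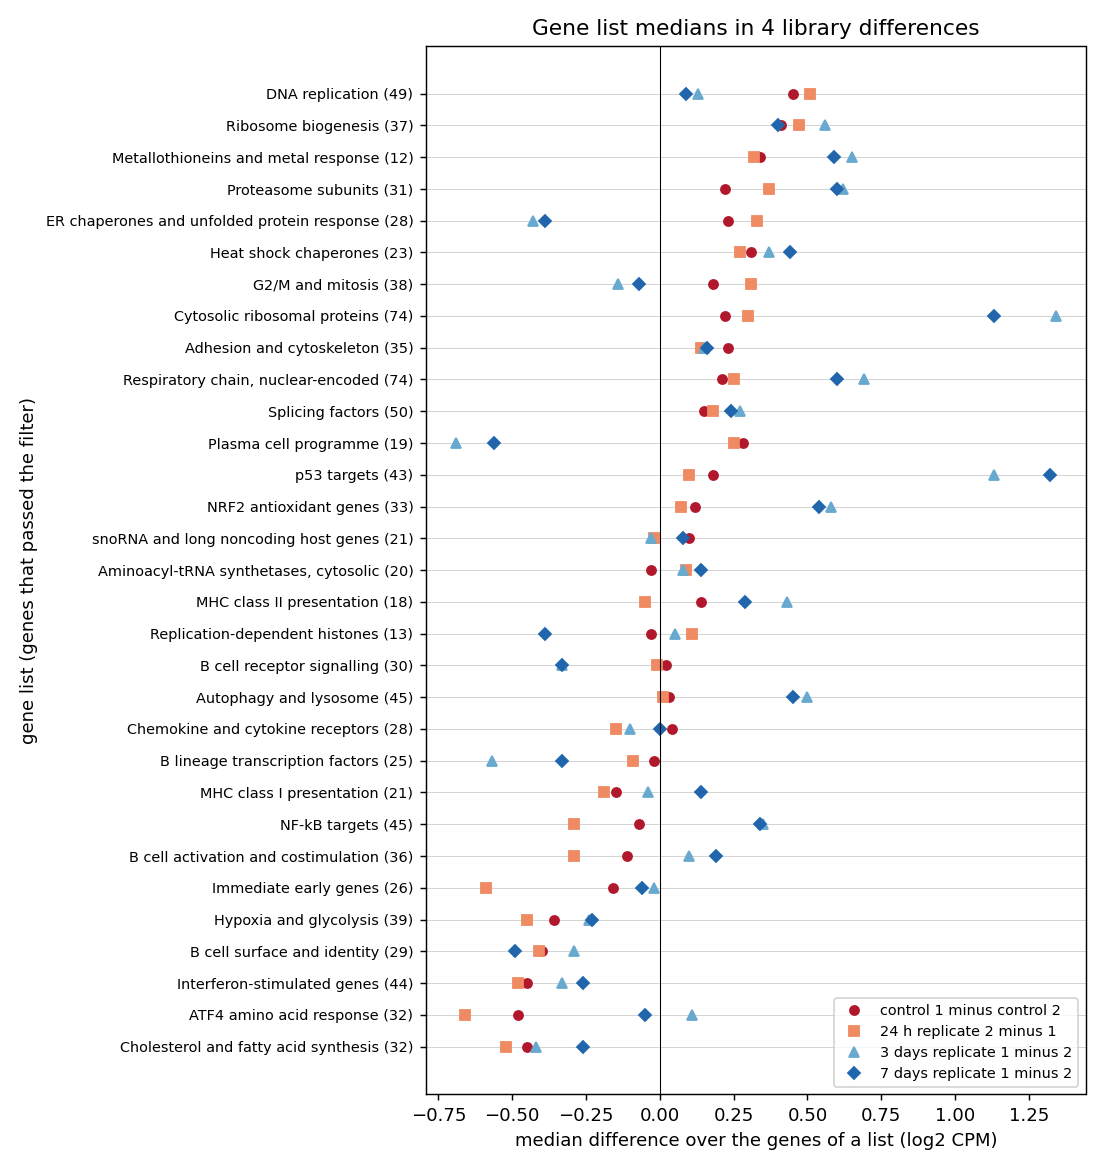
Median log2 CPM difference over the filtered genes of each list (number in brackets) for control 1 minus control 2 and 24 h replicate 2 minus 1, the 2 early differences, and for replicate 1 minus 2 at 3 and at 7 days. Lists are ordered by the early differences, from DNA replication (median 0.50) to cholesterol and fatty acid synthesis (-0.51).

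The genes with the widest gaps belonged to no single list. CHL1, a neural adhesion molecule of the L1 family, had the widest gap on the side of pair B, with 58.7 and 59.6 CPM in pair A and 231 and 256 in pair B. ASB2, a substrate adaptor of a ubiquitin ligase, was at 80.7 and 79.8 CPM in pair A and 17.2 and 17.5 in pair B. GLDC, the glycine decarboxylase of mitochondria, was at 51.1 and 50.5 CPM against 19.96 and 18.8. In these 3 genes the libraries of a pair differed by at most 0.14 on the log2 scale. The other genes of the 15 widest gaps on the side of pair A included MAP4K4, a stress-activated kinase (35.9 and 34.4 against 14.7 and 13.1 CPM). On the side of pair B they included PDCD1LG2, the checkpoint ligand PD-L2 (8.79 and 8.28 against 26.3 and 25.6 CPM), and VLDLR, a lipoprotein receptor (7.38 and 5.95 against 22.4 and 31.5 CPM).

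**Figure D4:**
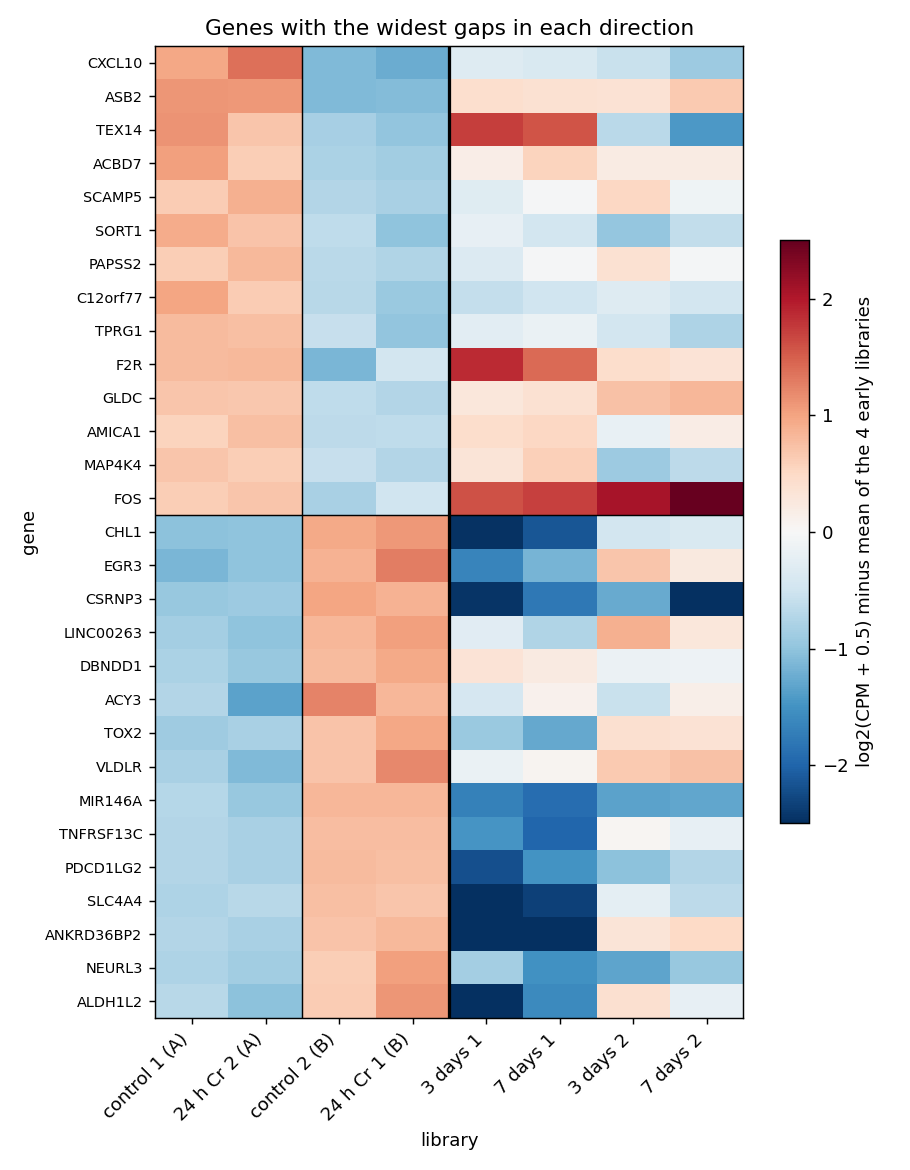
Genes among the 15 with the widest gap in each direction (rows) in all 8 libraries (columns); colour is log2(CPM + 0.5) minus the mean of the 4 early libraries, limited to -2.5 and 2.5. The early columns fall into the 2 pairs, as the choice of genes fixes, and the late columns show which of these genes also differ between late replicate numbers.

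The late libraries did not enter the choice of the pairs or the gap that defines pair A and pair B genes, and allowed a test of those genes. Number 1 minus number 2 at 3 and 7 days was tested with the edgeR quasi-likelihood test, with terms for group and for early pair. Each early pair holds both numbers, so setting pair A beside number 1 and pair B beside number 2 is only a convention for direction. Words such as kept, turned and reversed refer to it. By chi-square both early pairs were nearer to number 2 than to number 1. Of all genes tested, 3624 (28.9%) passed as higher in number 1 and 3617 (28.9%) as higher in number 2, together 57.8%. Of the 434 pair B genes, 277 (63.8%) were higher in number 2 and 17 (3.92%) in number 1, and their median late difference was -0.81 (-0.85 at 3 days and -0.81 at 7 days). Of the 265 pair A genes, 99 (37.4%) were higher in number 1 and 29 (10.9%) in number 2, with a median of 0.33 (0.39 and 0.33). The median over all genes was -0.01. The model left 2 residual degrees of freedom, and its spread rests partly on the early pairs, which were chosen for likeness. The labels do not say whether late libraries of the same number share a culture. The late p-values and standard errors thus measure the spread between these libraries, which may not be that between cultures. With only the 4 late libraries in the fit, 3525 and 3437 genes passed. Over all 12536 genes, the early difference (A minus B) and the late one (1 minus 2) went together with Pearson r 0.38 and Spearman rho 0.38.

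CD22 was at 98.0 and 80.3 CPM in the late libraries numbered 1 (3 days, then 7 days) and 159.9 and 168 in those numbered 2, a difference of -0.88 ± 0.101 (SE, log2; edgeR adjusted p = 7.29e-15). CHL1 was at 21.4 and 26.8 CPM against 87.2 and 92.3 (-1.90 ± 0.117, adjusted p = 7.02e-38), and EGR3 at 7.81 and 11.3 against 41.9 and 30.4 (-1.92 ± 0.154, adjusted p = 7.95e-26). In each, number 2 resembled pair B in direction, although the level of CHL1 in number 2 was nearer to pair A. SREBF1 in number 2 (30.1 and 28.9 CPM) was level with pair B and in number 1 (15.5 and 11.8 CPM) with pair A, and its late difference was -1.11 ± 0.15 (adjusted p = 1.95e-11). MAP4K4, higher in pair A, was higher in number 1 (27.8 and 33.6 against 11.5 and 13.9 CPM, 1.27 ± 0.148, adjusted p = 1.73e-14).

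Other genes that parted the early pairs did not pass the late test in that direction. ASB2 was at 50.6 and 49.0 CPM in number 1 and 48.5 and 59.5 in number 2 (adjusted p = 0.423), between the levels of the early pairs. PRDM1 was at 183 and 196 CPM against 194 and 195 (adjusted p = 0.763), and RRM2 at 829 and 842 against 879 and 905 (adjusted p = 0.395). The numbers overlapped for ASB2 and PRDM1, and for RRM2 all 4 late libraries lay above both early pairs. Others were reversed: ITGAL was higher in number 2 (239.9 and 250.5 against 133 and 134 CPM, -0.87 ± 0.097, adjusted p = 1.23e-15), and IFIT2, an interferon-stimulated gene at 45.9 and 50.5 CPM in pair A and 122 and 110.0 in pair B, was higher in number 1 (75.5 and 84.5 against 39.4 and 43.3 CPM, 0.95 ± 0.111, adjusted p = 1.75e-14).

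The late calls of each list are read beside the share of all genes, 28.9% in each direction. The lists were chosen with earlier results of these data known, so their late counts are a description. Cholesterol and fatty acid synthesis kept the direction of the pairs with 19 of 32 genes higher in number 2 and 4 in number 1 (median -0.34). Interferon-stimulated genes had 21 of 44 and 8 (median -0.33), and B cell surface genes 16 of 29 and 7 (median -0.31). Ribosome biogenesis had 26 of 37 higher in number 1 and 1 in number 2 (median 0.44). The largest late medians were those of p53 targets (39 of 43 higher in number 1 and 1 in number 2, median 1.24) and cytosolic ribosomal proteins (73 of 74 and 0, median 1.22), whose early medians were 0.14 and 0.24. The respiratory chain had 56 of 74 and 1 (median 0.63), and proteasome subunits 28 of 31 and 0 (median 0.60). The plasma cell programme turned, with 2 of 19 higher in number 1 and 12 in number 2 (median -0.69), as did ER chaperones with 3 of 28 and 16 (median -0.43). NF-kB targets turned the other way, with 23 of 45 higher in number 1 and 8 in number 2 (median 0.36). DNA replication and the ATF4 response, wide apart in the early pairs, had late medians of 0.09 and 0.08. The late libraries also differed in read assignment: no-feature reads were 39.4% and 36.5% in number 1 and 46.1% and 45.3% in number 2, and their part in the result was not tested.

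**Figure D5:**
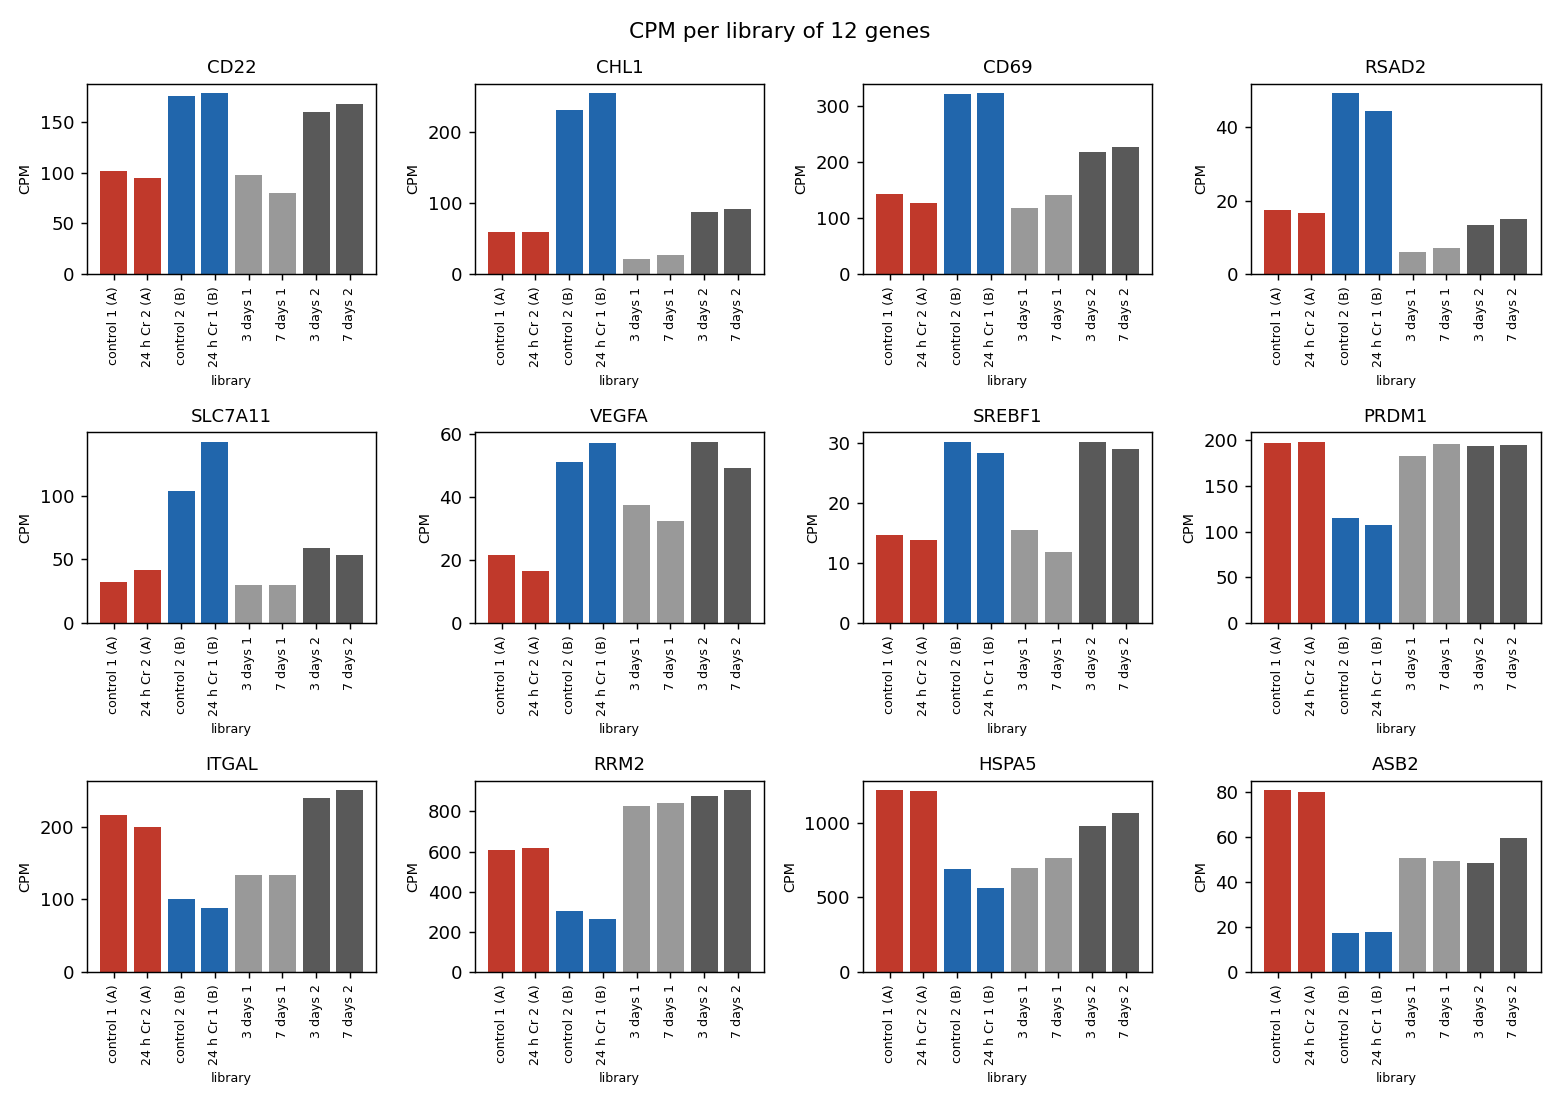
CPM of 12 genes in each of the 8 libraries, 1 panel per gene and 1 bar per library, from 0. Red bars are pair A, blue bars pair B, light grey bars late replicate 1 and dark grey bars late replicate 2. For CD22 and SREBF1 late replicate 1 lies near pair A and late replicate 2 near pair B. PRDM1, RRM2 and ASB2 show no such match.

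Transcript length and base composition moved with the pairs. The median transcript length was 2910 bases for pair A genes, 3700 for pair B genes and 3370 for all genes with a value, and the median GC content was 49.0%, 45.4% and 47.7%. Across 12135 genes, the early difference had a Spearman rho of -0.14 with length and 0.16 with GC content, and the late difference -0.26 and 0.19. With a smooth trend on both removed from each library, 260 genes had a gap of 1.5-fold on the side of pair A, 220 of them pair A genes, and 409 on the side of pair B, 344 of them pair B genes. List medians were then -0.46 for interferon-stimulated genes, -0.54 for the ATF4 response, -0.39 for cholesterol and fatty acid synthesis, 0.42 for DNA replication and 0.15 for cytosolic ribosomal proteins.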

How the data were processed

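RNA was sequenced in 8 libraries (poly-A selected, 2 per group); the 4 early libraries are described in depth. Each library has its own deposited table of raw counts for 23710 gene symbols. The submitters' processing notes name the builds hg19 and GRCh37 and the tools R 3.2.3, DESeq2 1.8.1, Bowtie2, Trim Galore and SAMtools. Counting tool, strand setting and annotation release were not given in the sources used here, so reads of overlapping or antisense genes, and of near-identical copies, cannot be told apart. Summary entries that name no gene took 42.6% to 57.5% of a table and were left out.

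In edgeR 4.0.16 (R 4.3.3), filterByExpr (minimum count 10, minimum total 15) kept 12536 genes, and TMM factors were taken over the 8 libraries. Log2 CPM used a prior count of 2. The early pairs were chosen from these counts, so no test was made of them. The late replicate number (all 8 libraries, with terms for group and early pair) and 24 h against control (a coefficient per group) were tested with the quasi-likelihood test of edgeR, with Benjamini-Hochberg adjustment over all genes and a threshold of 0.05. DESeq2 1.42.0, limma-voom 3.58.1 and the settings in the closing section were alternatives. The procedure was tested on simulated data. A trend on transcript length and GC content was fitted with mgcv 1.9.3, for genes matched to GENCODE; this alternative was chosen after seeing the data. Promoters and the miRNA are from RefSeq (GRCh38.p14).

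Replicate numbers do not pair the early libraries: across genes, the difference between the numbers in control and at 24 h had a correlation of -0.6, and between 3 and 7 days 0.81. The members and the 35 gene lists (1097 genes, 8 of them matched through a synonym) were chosen with earlier results of these data known. Named genes are the 15 widest gaps in each direction among genes of at least 5 CPM in the higher pair, CD22, up to 4 members per list with the widest gap, and markers of other cells that reach 10 CPM. ASNS, E2F2, FCRL2, SREBF2 and UHRF1 fall outside that rule and were chosen after their values were seen. Some genes that the rule names are not reported here.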

Additional observations from a re-analysis of the deposited data

How the results depend on the processing

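No gene named by the rule and neither late median of the pair A and pair B genes changed sign under the alternatives run. ASNS, E2F2, FCRL2, SREBF2 and UHRF1, chosen outside the rule, were not followed through the alternatives. The late calls, 3624 and 3617, leaned to number 2 with upper-quartile factors (3444 and 3847), no filter (3494 and 3562) and DESeq2 (2589 and 2609). List medians near 0 changed sign in some settings for B cell receptor signalling, MHC class II, autophagy, tRNA synthetases, chemokine receptors, histones and snoRNA hosts. With no filter on low counts, 424 genes had a gap of 1.5-fold on the side of pair A and 692 on that of pair B, and 22.6% and 40.5% of them passed the late test in the same direction, with late medians of 0.206 and -0.443. A stricter filter (50 counts in at least 2 libraries) gave 137 pair A genes with a late median of 0.408 and 325 pair B genes with -0.801. Of these, 51.8% and 74.2% passed the late test in the same direction. Both settings test another set of genes, so 28.9% in the main fit is not their share of all genes. RLE scaling gave a late median of 0.379 for pair A genes, and removing the length and GC trend gave -0.728 for pair B genes. Leaving out 1 early library leaves a pair with 1 library, which widens gaps by construction: 531 to 801 genes on the side of pair A and 684 to 971 on that of pair B, with the most in both directions without control replicate 2. The late test without each library gave 2828 to 3555 and 2841 to 3505 genes. For 24 h against control, a block by replicate number gave 0 genes. A crossed block, with the early pair in place of the number, gave 94 (35 higher, 59 lower), with its spread set by the choice of alike libraries. Of 1001 values of 143 named genes under other settings, 964 moved by less than the spread within a pair and 37 by more. Depth limits genes of a few CPM, where 1 library can decide the gap.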
